A study of Mus musculus with 4 samples.

Results

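The genes described here are named for proteins of the mitochondrial ribosome, and they were taken by symbol alone: every gene of the table whose symbol begins with Mrpl or Mrps followed by a digit. The rule gave 78 of 21957 genes, 49 named for the large subunit (Mrpl) and 29 for the small subunit (Mrps). All 78 are annotated as protein coding, they lie on 17 chromosomes, and none was listed at 0 in any library. The rule reads symbols and no expression value.

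Messenger RNA was measured by RNA-seq in mouse oocytes of B6D2F1 (C57BL/6 x DBA) females of 6 to 8 weeks, with 1 library in each of 4 conditions. GV oocytes (germinal vesicle stage, arrested in prophase of the first meiotic division) were the starting cells, and MII oocytes had matured in culture without inhibitor to metaphase of the second meiotic division. TubA-10 and TubA-20 oocytes were cultured with tubastatin A (TubA), an inhibitor of the deacetylase HDAC6, at 10 and 20 µM. All oocytes came from M16 medium, the inhibitor was dissolved in DMSO, and each library was made from a pool of oocytes freed of cumulus cells, so it stands for that pool and not for single cells. The labels conflict on the dose: the titles give 10 and 20 µM, while the treatment field gives 20 µM for TubA-10 and 11 µM for TubA-20, and the names from the titles are used here. MII oocytes were picked for an extruded polar body, whereas the labels give no meiotic stage and no picking by stage for the treated oocytes. The study describes the step to MII as inhibited at its higher dose, so the inhibitor, the stage reached and this selection cannot be told apart. The MII library is titled as an embryo and is taken as MII oocytes from its source and stage. With 1 library per condition there is no replicate error and no p-value, and each difference is one between 2 libraries.

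Mitochondrial ribosomes translate the few proteins that mitochondrial DNA encodes, all of them parts of oxidative phosphorylation. Their ribosomal RNAs come from mitochondrial DNA, but every ribosomal protein is encoded in the nucleus, made in the cytoplasm and imported. Many of these proteins have bacterial counterparts and others occur only in mitochondria. The growing oocyte stores messenger RNA, transcription is off during meiotic maturation, and the stock is then deadenylated, degraded or, for some messages, polyadenylated and translated.

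Values are FPKM, fragments per kilobase of transcript scaled to the mapped fragments of the library, so levels of different genes can be compared per length. They are relative to the other messages of the same library and give no amount of message per oocyte. Words such as higher, lower, fell and kept are meant in that sense below. A log2 change is log2 of the ratio of FPKM + 1 in the 2 libraries, which understates changes of low genes, and a gene was called when that ratio passed 2-fold. The libraries held 623353 (GV), 568331 (MII), 590686 (TubA-10) and 627340 (TubA-20) FPKM in all. All 10 oocyte markers were present in every library (lowest, Figla at 12.4 FPKM in TubA-20), 10 cumulus and granulosa cell markers added up to 17.3, 12.7, 10.2 and 14.2 FPKM across GV, MII, TubA-10 and TubA-20, and 6 blood cell markers to 0.0779 FPKM or less. Of the cumulus and granulosa markers 8 of 10 were under 1 FPKM in each library, and Foxl2 was at 0 in all of them. Inha had 7.50 FPKM in GV and 0.239 to 0.314 FPKM in the rest, while Cyp19a1 had 6.14, 8.60, 7.42 and 10.3 FPKM across GV, MII, TubA-10 and TubA-20, and Kitl 0.952 FPKM in GV and 2.03 to 2.75 FPKM in the rest. Their part in the results was not tested. The spread between the 2 most alike libraries, TubA-10 and MII, was an SD of 0.38 log2 over the 5546 genes with a mean of at least 10 FPKM, called expressed genes below, and it holds the effect of 10 µM TubA as well as any error between libraries. Of the 78 members 68 reach that mean and are themselves among the expressed genes. Counts of members are over all 78, so this background is not fully matched to them.

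Mitochondrial ribosomal protein messages were abundant in GV oocytes and much scarcer in all 3 cultured libraries. Together the 78 genes had 10730 FPKM in GV, 5948 in TubA-10, 4731 in MII and 4408 in TubA-20. Relative to GV these sums were 55.4%, 44.1% and 41.1%. Their share of all FPKM was 1.72% in GV, 1.01% in TubA-10, 0.832% in MII and 0.703% in TubA-20. The median gene had 76.9 FPKM in GV, 46.3 in TubA-10, 35.1 in MII and 24.9 in TubA-20. In bulk libraries of pooled cells, a lower level in each oocyte and fewer oocytes that carry the message cannot be told apart, and libraries enriched for poly(A) RNA do not tell a shorter tail from a lost message.

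The highest member had 282 times the FPKM of the lowest in GV, 238 times in MII, 478 times in TubA-10 and 787 times in TubA-20. In the TubA libraries the lowest was Mrps34, and without it the ratios are 234 and 387. The SD of log2 levels over all members was 1.81 in TubA-20 and 1.76 in GV, against 1.70 in TubA-10 and 1.61 in MII. The highest in GV was Mrpl14, a protein at the face of the large subunit that meets the small one, at 643 FPKM. In TubA-20 it was Mrps14, a small subunit protein with a bacterial counterpart, at 545 FPKM. The count of members with at least 100 FPKM was 35 in GV, 18 in TubA-10 and 12 in both MII and TubA-20.

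**Figure D1:**
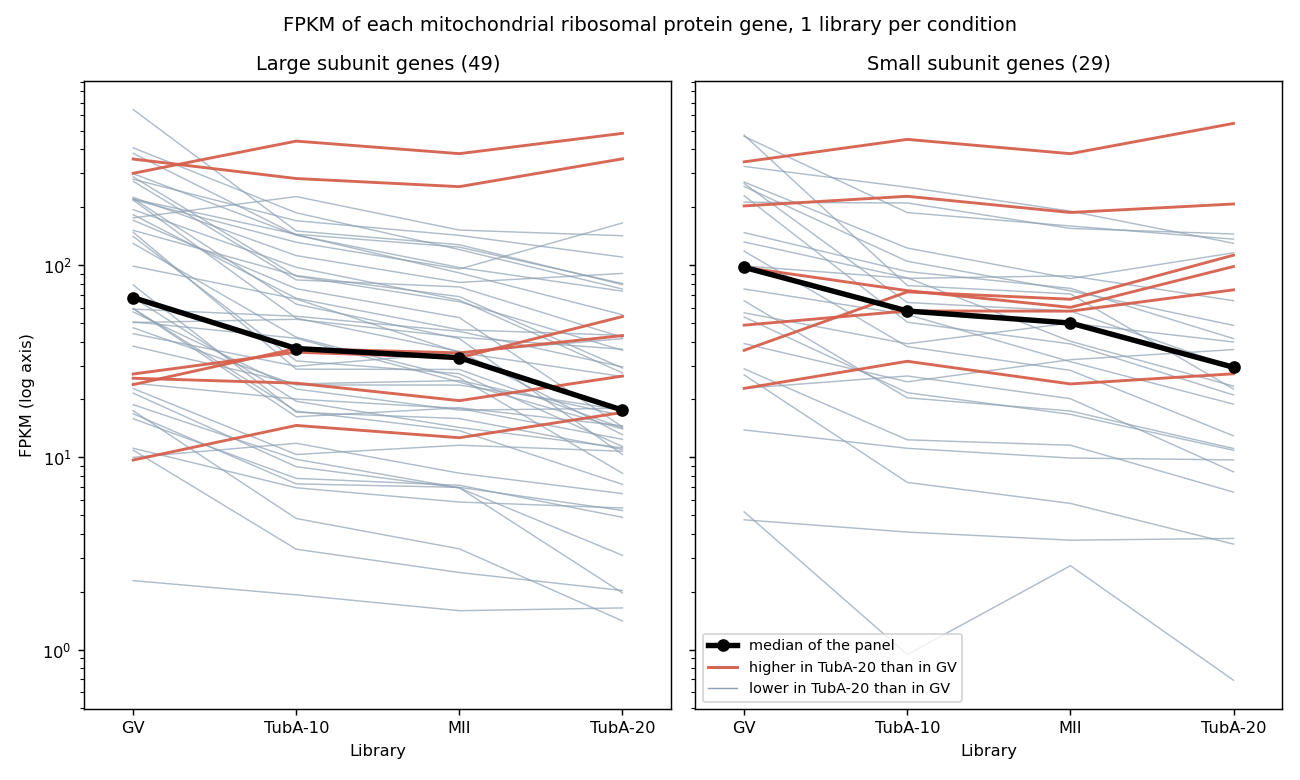
FPKM on a log axis of each of the 49 large (left) and 29 small (right) subunit genes in the 4 libraries, with red lines for the 12 genes higher in TubA-20 than in GV, grey lines for the 66 lower and black points for the panel's median. The black medians step down from GV through TubA-10 and MII to TubA-20, from 67.7 to 17.6 FPKM on the left and from 97.3 to 29.4 FPKM on the right, and a red line sits at the top of each panel in TubA-20.

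One order of the libraries was by far the most frequent. It was GV, TubA-10, MII, TubA-20 from high to low and held for 48 of the 78 members (61.5%), 32 of the 49 large and 16 of the 29 small subunit genes, against 22.1% of expressed genes. GV was the highest library for 62 members (79.5%, against 32.8% of expressed genes) and TubA-20 the lowest for 56 (71.8%, against 32.3%). The exact reverse held for 0 members and for 31.8% of expressed genes. From high to low, TubA-20, TubA-10, MII, GV was the order of 7 members, Mrpl3, Mrpl18, Mrpl44, Mrpl45, Mrps5, Mrps14 and Mrps23, a share (8.97%) near the 8.17% of expressed genes. Between neighbours in the common order, 36 of 78 members differed by more than 2-fold between GV and TubA-10, 1 between TubA-10 and MII and 12 between MII and TubA-20. The shares lower in TubA-10 than in GV were 5.60% of all and 12.7% of expressed genes. Those higher in TubA-10 than in MII were 0.515% and 1.30%, near the 1.28% that 1 member makes. Those lower in TubA-20 than in MII were 2.44% and 6.85%.

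For normal maturation the question was how these messages stand in MII oocytes against GV oocytes. In MII 70 of 78 members were lower than in GV and 8 higher, with a median log2 change of -1.18. Scaling to equal Gapdh puts 13 above GV, Mrpl32, Mrps6, Mrps11, Mrps31 and Mrps36 being the added ones. Past 2-fold, 43 members (55.1%) were lower and 0 higher. Of all genes 8.34% were more than 2-fold lower and 3.05% higher, and of expressed genes 19.0% and 9.90%. The median of expressed genes was 0.22, so the family lay on the other side of 0.

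Large subunit genes were further from GV than small subunit genes in MII by their medians. The median change was -1.32, with 30 of 49 more than 2-fold lower, against -0.77 and 13 of 29 for the small subunit. Among genes with a bacterial counterpart the medians were close, at -1.31 (16 of 28) for the large and -1.24 (9 of 16) for the small subunit, and the gap lay among genes found in mitochondria only, at -1.32 (14 of 21) and -0.73 (4 of 13). By the same call 8.34% of all genes and 19.0% of expressed genes were lower. The furthest of the large subunit genes was Mrpl12, part of the stalk that recruits translation factors, at 218 FPKM in GV and 35.6 in MII, a log2 change of -2.58. In the small subunit it was Mrps18c, one of 3 relatives of a bacterial small subunit protein, at 473 FPKM in GV and 70.8 in MII, a change of -2.72. Mrps5, whose bacterial relative takes part in accurate decoding, had the largest positive change, from 36.04 to 66.4 FPKM, or 0.86. The 8 genes above GV also included Mrps9 at 0.07 and Mrps14 at 0.14, whose direction flips when the libraries are scaled to a median change of 0.

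In TubA-10 the changes from GV were smaller in the median than in MII. There 65 members were lower and 13 higher, with a median of -0.91. Past 2-fold, 36 (46.2%) were lower and 0 higher, where 5.60% of all genes were lower and 0.742% higher, and 12.7% and 1.95% of expressed genes. The large subunit had 24 of 49 past 2-fold lower with a median of -0.99, and the small subunit 12 of 29 with a median of -0.61. Mrps5 came closest to a call upwards, at 72.5 FPKM and a log2 change of 0.99.

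TubA-20 oocytes stood furthest from GV. In that library 66 members were lower and 12 higher, with a median of -1.69, and 51 (65.4%) were more than 2-fold lower while 1, Mrps5, was more than 2-fold higher. Among all genes 11.7% were called lower and 7.61% higher. Expressed genes split evenly, with 24.0% lower and 24.0% higher and a median of 0.37. The large subunit had 34 of 49 genes past 2-fold lower and a median of -1.78, the small subunit 17 of 29 and -1.34. The 3 comparisons share the GV library, so each inherits whatever is particular to it.

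**Figure D2:**
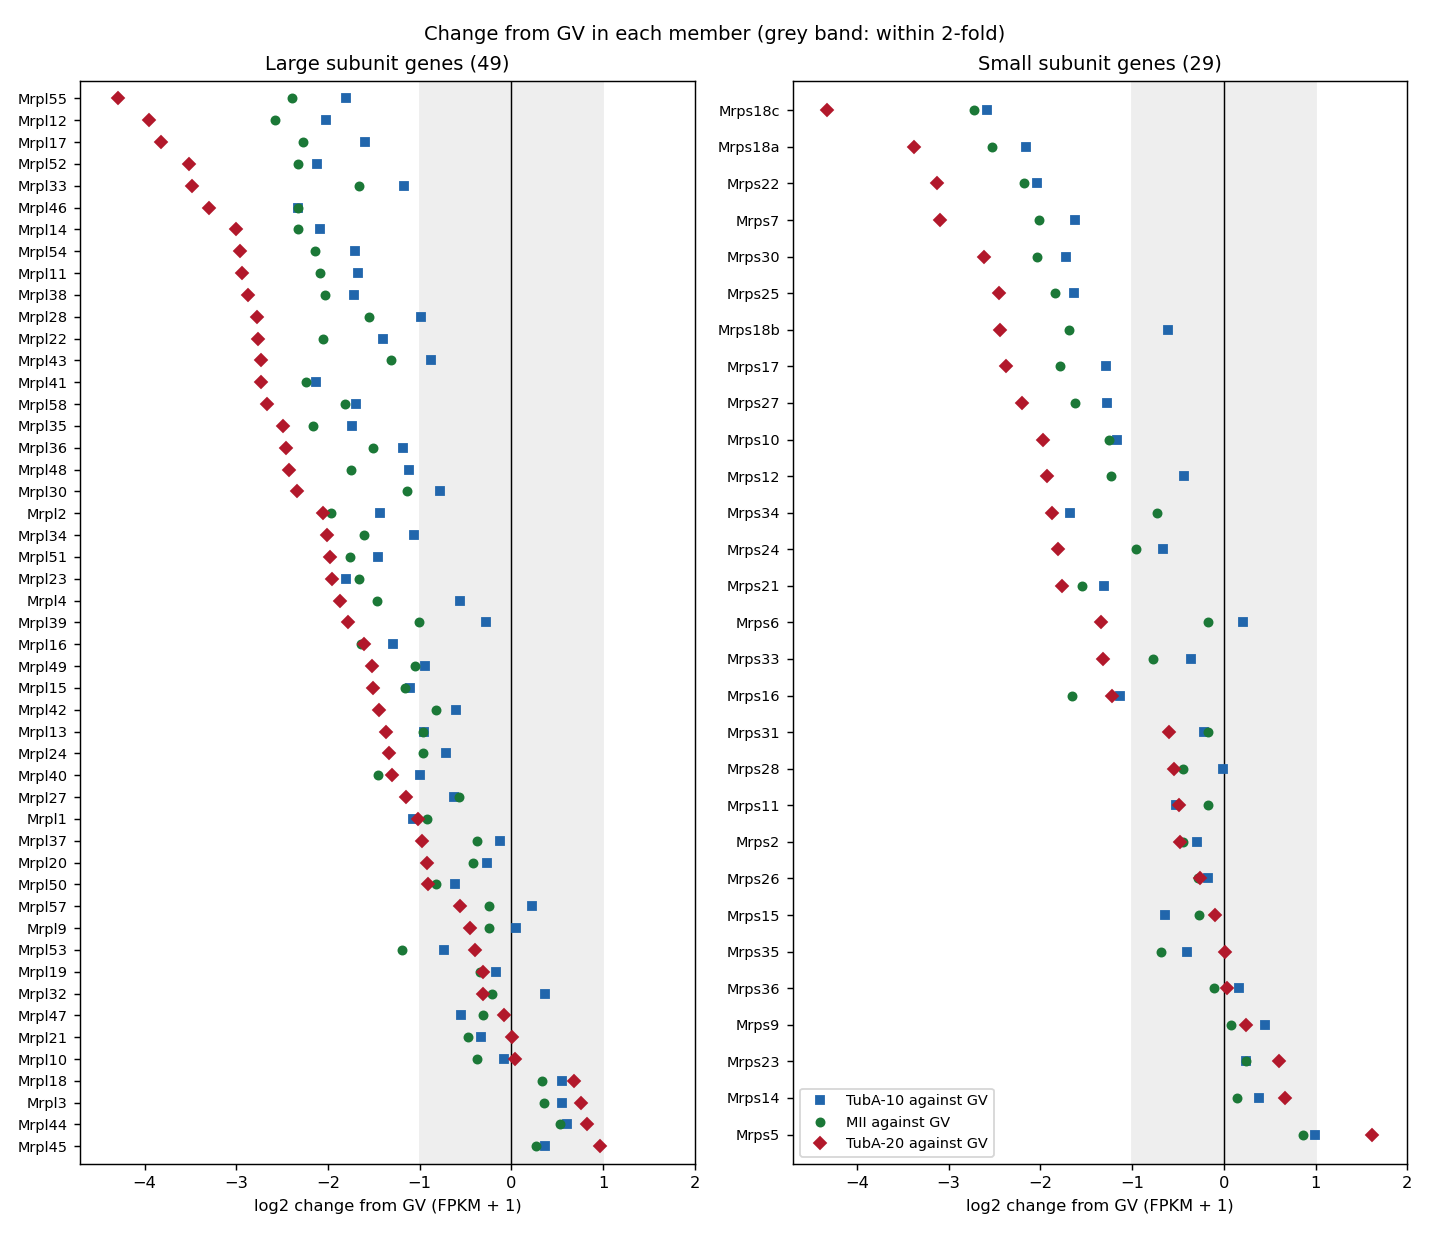
Log2 change from GV of every member in TubA-10 (squares), MII (circles) and TubA-20 (diamonds), 1 row per gene, ordered by TubA-20 within the large (left) and small (right) subunit, with a grey band for changes within 2-fold. Diamonds reach -4.30 for Mrpl55 and -4.33 for Mrps18c at the top and run past the circles, while at the bottom Mrps5 is the only gene with a diamond right of the band.

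Mrps18c and Mrpl55 fell the most between GV and TubA-20. Mrps18c had 473, 70.8, 78.2 and 22.7 FPKM across GV, MII, TubA-10 and TubA-20, a log2 change of -4.33 or 20.1-fold. Mrpl55, a protein of the large subunit found in mitochondria and not in bacteria, had 222, 41.4, 62.6 and 10.3 FPKM, a change of -4.30 or 19.6-fold. In both genes GV was far above the rest and TubA-20 the lowest.

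Mrpl12 followed with 218, 35.6, 52.9 and 13.1 FPKM, at -3.95 in TubA-20 against GV. Mrpl17, at the exit of the peptide tunnel, had 129.6, 26.0, 42.2 and 8.26 FPKM, at -3.82. Mrpl52, of the large subunit and without a bacterial counterpart, had 141, 27.2, 31.7 and 11.4 FPKM, at -3.52. All 3 were lower in TubA-20 than in MII, by 1.19 to 1.54 on the log2 scale.

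Mrpl33, a small protein near the site where spent tRNAs leave, had 171, 53.3, 75.3 and 14.4 FPKM, at -3.48 against GV. In the small subunit Mrps18a stood at 229, 38.9, 50.4 and 21.1 FPKM (-3.38) and Mrps22, found in mitochondria only, at 265, 57.7, 63.9 and 29.4 FPKM (-3.13). Mrps7, which binds ribosomal RNA at the head of the subunit, was at 118, 28.3, 37.6 and 12.9 FPKM (-3.09). Mrps30, at 26.8, 5.76, 7.41 and 3.54 FPKM (-2.62), completed the 5 largest falls of the genes named for the small subunit.

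The promoters of the genes at both ends of this range, and of a pair of members that share one, are shown because the results turn on these genes. Each is the RefSeq window on GRCm38.p6 from 250 bases before to 50 after the annotated start, 300 bases on the gene's own strand, in lower case with matches to 4 short motifs in capitals. The motifs, searched on both strands, were GCGCATGC for NRF1 and CCGGAAGT for ETS family factors (both known at genes for mitochondrial proteins), AAGATGGC for YY1 and GGGCGG for SP1, and in these windows no match overlaps another. Mrps18c lies on the plus strand with its window at chr5:100798509-100798808, and carries ETS and SP1 matches. Mrpl55 (plus, chr11:59202236-59202535) carries 3 SP1 matches and Mrps5 (plus, chr2:127587176-127587475) carries 1. The RefSeq start is at 100798759 for Mrps18c and 127587426 for Mrps5, while GENCODE, used for neighbours below, has 100798627 and 127587222. Mrps11 (plus, chr7:78782881-78783180) and Mrpl46 (minus, chr7:78783040-78783339) start 42 bases apart on opposite strands in RefSeq and share 141 bases of window, whereas their GENCODE starts overlap by 412 bases.
Mrps18c: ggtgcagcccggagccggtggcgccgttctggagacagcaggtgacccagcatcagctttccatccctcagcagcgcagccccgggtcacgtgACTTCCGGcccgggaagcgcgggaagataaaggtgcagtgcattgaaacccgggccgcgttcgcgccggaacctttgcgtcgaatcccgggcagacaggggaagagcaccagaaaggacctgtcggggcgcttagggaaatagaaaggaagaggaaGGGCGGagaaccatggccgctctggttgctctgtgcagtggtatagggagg
Mrpl55: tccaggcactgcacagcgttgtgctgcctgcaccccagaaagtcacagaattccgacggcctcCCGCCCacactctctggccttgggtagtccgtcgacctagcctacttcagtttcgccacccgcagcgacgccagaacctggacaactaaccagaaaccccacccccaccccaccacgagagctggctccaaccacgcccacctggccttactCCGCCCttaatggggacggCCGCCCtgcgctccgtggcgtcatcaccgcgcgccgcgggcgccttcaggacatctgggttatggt
Mrps5: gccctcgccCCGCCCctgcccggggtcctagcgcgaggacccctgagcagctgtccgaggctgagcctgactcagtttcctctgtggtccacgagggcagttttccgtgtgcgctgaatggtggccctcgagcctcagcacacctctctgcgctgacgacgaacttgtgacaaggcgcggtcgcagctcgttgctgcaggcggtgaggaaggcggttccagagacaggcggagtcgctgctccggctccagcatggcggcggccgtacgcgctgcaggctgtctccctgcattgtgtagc
Mrps11: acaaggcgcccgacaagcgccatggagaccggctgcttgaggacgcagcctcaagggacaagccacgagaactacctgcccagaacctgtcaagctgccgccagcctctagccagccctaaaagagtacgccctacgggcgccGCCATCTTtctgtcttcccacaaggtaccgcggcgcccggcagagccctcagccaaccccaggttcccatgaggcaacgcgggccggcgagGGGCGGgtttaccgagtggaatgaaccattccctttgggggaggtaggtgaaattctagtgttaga
Mrpl46: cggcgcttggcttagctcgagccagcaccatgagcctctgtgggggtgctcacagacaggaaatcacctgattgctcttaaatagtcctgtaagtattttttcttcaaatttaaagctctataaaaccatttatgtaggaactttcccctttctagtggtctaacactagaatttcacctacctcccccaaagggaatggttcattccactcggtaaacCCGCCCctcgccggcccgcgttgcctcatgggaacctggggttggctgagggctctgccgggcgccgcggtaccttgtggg

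Of the 78 members 69 had a promoter in the table. Matches were in 8 of them for NRF1 (11.6%), 12 for ETS (17.4%), 12 for YY1 (17.4%) and 34 for SP1 (49.3%). Among all 27025 genes with a promoter the shares were 3.05%, 4.31%, 3.19% and 38.2%, and among 4489 expressed genes 7.64%, 11.2%, 6.46% and 70.3%. No test was made of these shares, and for SP1 the members lay between both backgrounds. By direction in TubA-20, YY1 letters stood in 9 of 45 members more than 2-fold lower, 3 of 13 lower by less, and 0 of 11 higher. The other 3 motifs were found in all 3 classes. With 11 members in the higher class these counts are too small to order the classes, and expressed genes were not split this way. A match of letters is no evidence that a factor binds there.

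Mrps11 and Mrpl46 moved apart although they start within one window. Mrpl46, a large subunit protein found in mitochondria only, had 148, 28.6, 28.7 and 14.2 FPKM across GV, MII, TubA-10 and TubA-20, a TubA-20 to GV change of -3.29. Mrps11, a small subunit protein of the platform, had 56.5, 49.95, 39.0 and 39.8 FPKM, a change of -0.49. Mrpl46 was the higher of the pair in GV and the lower in every cultured library.

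Other members also had a neighbour that starts on the opposite strand. Taking GENCODE gene starts on opposite strands with up to 1000 bases between them, or overlapping by up to 500 bases (a limit set so that the Mrps11 and Mrpl46 pair counts), 26 of 78 members (33.3%) had such a neighbour, against 17.1% of expressed genes. With no overlap allowed, which leaves out that pair and 6 other members, it was 18 of 78 members (23.1%) and 664 of 5535 expressed genes, with no test made. For 24 the neighbour was no member, and 21 of these had a mean of at least 1 FPKM. In 15 of the 21 pairs the member was below GV by more than 2-fold in TubA-20. Their neighbours were also more than 2-fold lower in 7 pairs, lower by less in 1 and higher in 7. By the same call, the shares lower were 65.4% of the 78 members, 24.0% of expressed genes and 11.7% of all genes. The median change was -1.87 for the 21 members and -0.04 for the 21 neighbours.

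Mrps18c shows the widest gap. Helq, which encodes a DNA helicase and starts 29 bases away on the other strand, had 52.4, 75.1, 60.0 and 103 FPKM across GV, MII, TubA-10 and TubA-20, a change of 0.97 where Mrps18c had -4.33. Mrpl30 had 152, 68.5, 88.2 and 29.1 FPKM, while Mitd1, 66 bases away and encoding a protein of cell abscission, had 42.5, 69.8, 55.3 and 107 FPKM, for changes of -2.34 and 1.32. The opposite case was Mrpl36 with Ndufs6, a complex I subunit, whose genes overlap by 29 bases at their starts. They had 21.6 and 3.09 FPKM and 169 and 24.6 FPKM in GV and TubA-20, for changes of -2.46 and -2.73.

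**Figure D3:**
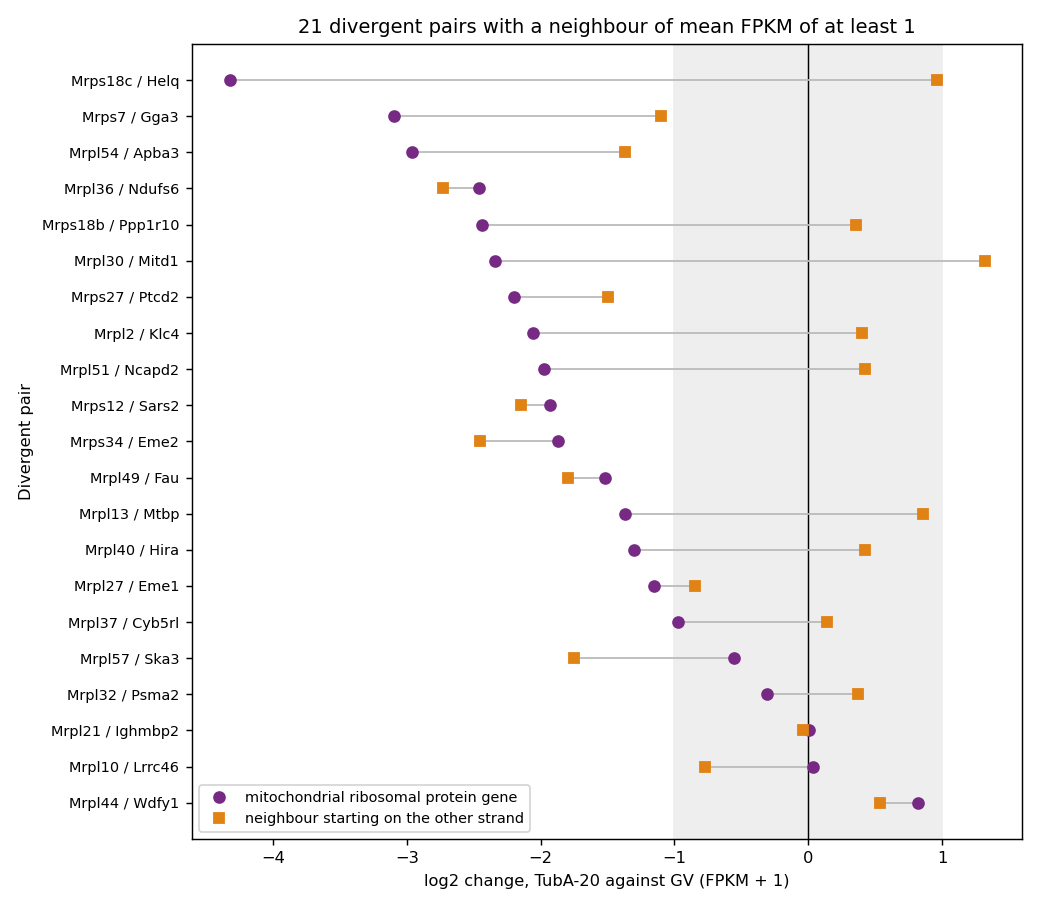
Log2 change, TubA-20 against GV, of the member (circle) and of the neighbour that starts on the other strand (square) in 21 divergent pairs, joined by a line and ordered by the member. Long lines cross 0 for Mrps18c and Helq (-4.33 and 0.97) and for Mrpl30 and Mitd1 (-2.34 and 1.32), whereas Mrpl36 and Ndufs6 lie side by side at -2.46 and -2.73.

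A few members went the other way. Mrps5 had 36.04, 66.4, 72.5 and 113 FPKM across GV, MII, TubA-10 and TubA-20, a TubA-20 to GV log2 change of 1.62, and its FPKM was the lowest in GV and the highest in TubA-20. Mrpl45, which sits at the tunnel exit and helps hold the ribosome at the inner membrane, had 27.1, 33.0, 35.2 and 54.0 FPKM, a change of 0.97. It passes 2-fold when the libraries are scaled to equal upper quartiles or equal Gapdh.

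Mrpl44, with a domain related to RNase III, had 23.9, 34.9, 36.8 and 43.0 FPKM, a change of 0.82. Mrpl3, which has a bacterial relative at the peptide-bond forming region, had 9.68, 12.6, 14.7 and 17.1 FPKM, a change of 0.76. Mrpl18, known also for bringing 5S ribosomal RNA towards mitochondria, had 300.1, 379.5, 441 and 484 FPKM, a change of 0.69. These 3 were within 2-fold of GV throughout.

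In the small subunit Mrps14 had 344, 379, 450.3 and 545 FPKM (0.66) and Mrps23, found in mitochondria only, 48.7, 57.6, 57.7 and 74.3 FPKM (0.60). Mrps9 had 22.8, 24.1, 31.6 and 27.2 FPKM (0.24), highest in TubA-10. The other 4 of the 12 genes above GV in TubA-20 lay within 0.04 of 0, namely Mrpl10, Mrpl21, Mrps35 and Mrps36, and all 4 fall below 0 when the libraries are scaled to a median change of 0. Mrps36, at 203, 188, 228 and 208 FPKM, is now assigned to 2-oxoglutarate dehydrogenase and not to the ribosome, and it hardly moved.

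The most abundant members by mean FPKM over the 4 libraries, a rank that favours genes that did not fall, were mixed in behaviour. In the large subunit these were Mrpl18, Mrpl21, Mrpl14, Mrpl48 and Mrpl24. Mrpl21 had 356, 256, 282 and 357 FPKM and Mrpl14 643, 127.5, 150.4 and 79.1 FPKM, for changes of 0.00 and -3.01 in TubA-20 against GV. Mrpl48 had 407, 120.4, 187 and 75.03 FPKM (-2.42) and Mrpl24 279, 143, 170.0 and 110.0 FPKM (-1.34).

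In the small subunit the 5 most abundant by mean FPKM were Mrps14, Mrps21, Mrps33, Mrps36 and Mrps28. In GV alone the highest was Mrps18c, at 473 FPKM, which is not among them. Mrps21 had 467, 159.6, 187 and 136 FPKM (-1.77) and Mrps33 325, 191, 254 and 129.8 FPKM (-1.32). Mrps28 had 212, 155, 210.2 and 145 FPKM (-0.55), and was the nearest of these 3 to its GV level. The 3 highest members in TubA-20 were Mrps14, Mrpl18 and Mrpl21.

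Mrps18a, Mrps18b and Mrps18c encode 3 relatives of one bacterial protein, and structures place Mrps18a in the large subunit. They stood at 229, 131.8 and 473 FPKM in GV oocytes, and TubA-20 had them at 21.1, 23.5 and 22.7 FPKM, so levels that differed 3.59-fold in GV ended within 1.11-fold of each other. Mrps18b differed from both others in TubA-10, at 85.8 FPKM against 40.1 in MII. That log2 change of 1.08 was the only one past 2-fold between TubA-10 and MII among the 78.

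The TubA libraries were set against MII because all 3 had been cultured, and these differences hold the stage reached and the picking of MII oocytes as well as the inhibitor. TubA-10 was above MII for 70 members and below for 8, with a median of 0.29 and a range from -0.94 to 1.08. Past 2-fold 0 were lower and 1 higher, against 0.128% and 0.515% of all genes and 0.162% and 1.30% of expressed genes. The medians were 0.30 for the large and 0.28 for the small subunit, where expressed genes had 0.00. Mrps34, a low gene at 5.21, 2.73, 0.943 and 0.693 FPKM across GV, MII, TubA-10 and TubA-20, was the furthest below MII, at -0.94.

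At the high dose the direction was the other one. TubA-20 was below MII for 58 members and above for 20, with a median of -0.45, and 12 (15.4%) were more than 2-fold lower and 0 higher. Of all genes 2.44% were called lower and 0.328% higher, and of expressed genes 6.85% and 0.379%. The large subunit held 8 of the 12, Mrpl12, Mrpl17, Mrpl28, Mrpl30, Mrpl33, Mrpl43, Mrpl52 and Mrpl55, and the small subunit Mrps6, Mrps7, Mrps18c and Mrps34. Subunit medians were -0.41 for the large and -0.55 for the small. Expressed genes had a median of 0.07.

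Of these 12, Mrpl55 was furthest from MII at -1.90, then Mrpl33 at -1.82, Mrps18c at -1.60 and Mrpl17 at -1.54. Mrpl28 had 194, 65.8, 97.3 and 27.5 FPKM across GV, MII, TubA-10 and TubA-20, a change of -1.23 from MII. Mrpl43 had 18.8, 6.94, 9.76 and 1.97 FPKM, a change of -1.42. Mrps6 differed in shape from the rest, at 22.9, 20.2, 26.5 and 8.41 FPKM, since it was near its GV level in MII and TubA-10 and low in TubA-20 alone. Its change was -0.17 in MII against GV and -1.17 in TubA-20 against MII.

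Mrpl53 was the member furthest above MII in TubA-20. It had 219, 95.3, 131 and 165 FPKM, a change of 0.79 from MII but -0.40 from GV. Mrps16, of the small subunit and with a bacterial counterpart, had 270.1, 85.1, 123 and 116 FPKM, at 0.44 from MII. Mrps35 had 97.3, 60.3, 73.6 and 98.3 FPKM, back at its GV level in TubA-20.

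Between the doses, TubA-20 was below TubA-10 for 63 members and above for 15, with a median of -0.66. Past 2-fold 25 (32.1%) were lower and 0 higher, against 5.52% and 0.660% of all genes and 14.7% and 1.46% of expressed genes. There were 16 of 49 large and 9 of 29 small subunit genes among them, with medians of -0.67 and -0.53. That order is not stable, since among members with a mean of at least 5 FPKM the large minus small difference turns to 0.0582. TubA-10 lay above and TubA-20 below MII in 52 members (66.7%), a pattern that 29.9% of expressed genes had. Both doses were above MII in 18 members (23.1%, near the 20.6% of expressed genes) and both below in 6 (7.69% against 13.9%), Mrpl1, Mrpl23, Mrpl27, Mrps11, Mrps31 and Mrps34. In 2 members, Mrpl47 and Mrps15, the low dose was below and the high dose above (2.56% against 35.6%). These comparisons share the MII and TubA-20 libraries with the ones before. By its own read totals, the study sequenced the high-dose library less deeply than the other cultured libraries, and the part of depth was not tested.

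By sums, the small subunit kept more of its GV level than the large one, and single abundant genes set the size of that gap. Large subunit genes summed to 6592 FPKM in GV and 2401 in TubA-20, 36.4% of GV, and small subunit genes to 4138 and 2007 FPKM, 48.5% of GV. The ratio of the sums, large to small, was 1.59 in GV, 1.37 in TubA-10, 1.32 in MII and 1.20 in TubA-20. Without Mrps14 the small subunit kept 38.5% in TubA-20 and the ratios were 1.74, 1.67, 1.62 and 1.64 in the same order. Without Mrpl18, the most abundant large subunit gene above GV in each cultured library, the large subunit kept 30.5%, and without both genes the ratios were 1.66, 1.46, 1.39 and 1.31. These genes were chosen after their values were seen. Changes within each subunit were wide beside this, with an SD of 1.33 log2 among large and 1.40 among small subunit genes in TubA-20 against GV. Moving Mrps18a and Mrps30 to the large subunit and leaving out Mrps36, after their known places, gave medians of -1.87 and -1.33.

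Pooled over both subunits, genes with and without a bacterial relative had close medians in TubA-20. Numbers up to 36 in the large and 21 in the small subunit mark proteins with a bacterial counterpart, 44 members, and higher numbers the 34 found in mitochondria only. In TubA-20 against GV their medians were -1.69 and -1.65, and 30 of 44 and 21 of 34 were more than 2-fold lower. Split by subunit, the large ones were at -1.74 (20 of 28 more than 2-fold lower) with a bacterial counterpart and -1.78 (14 of 21) without, and the small ones at -1.55 (10 of 16) and -1.32 (7 of 13). In MII the pooled medians were -1.24 and -1.03.

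**Figure D4:**
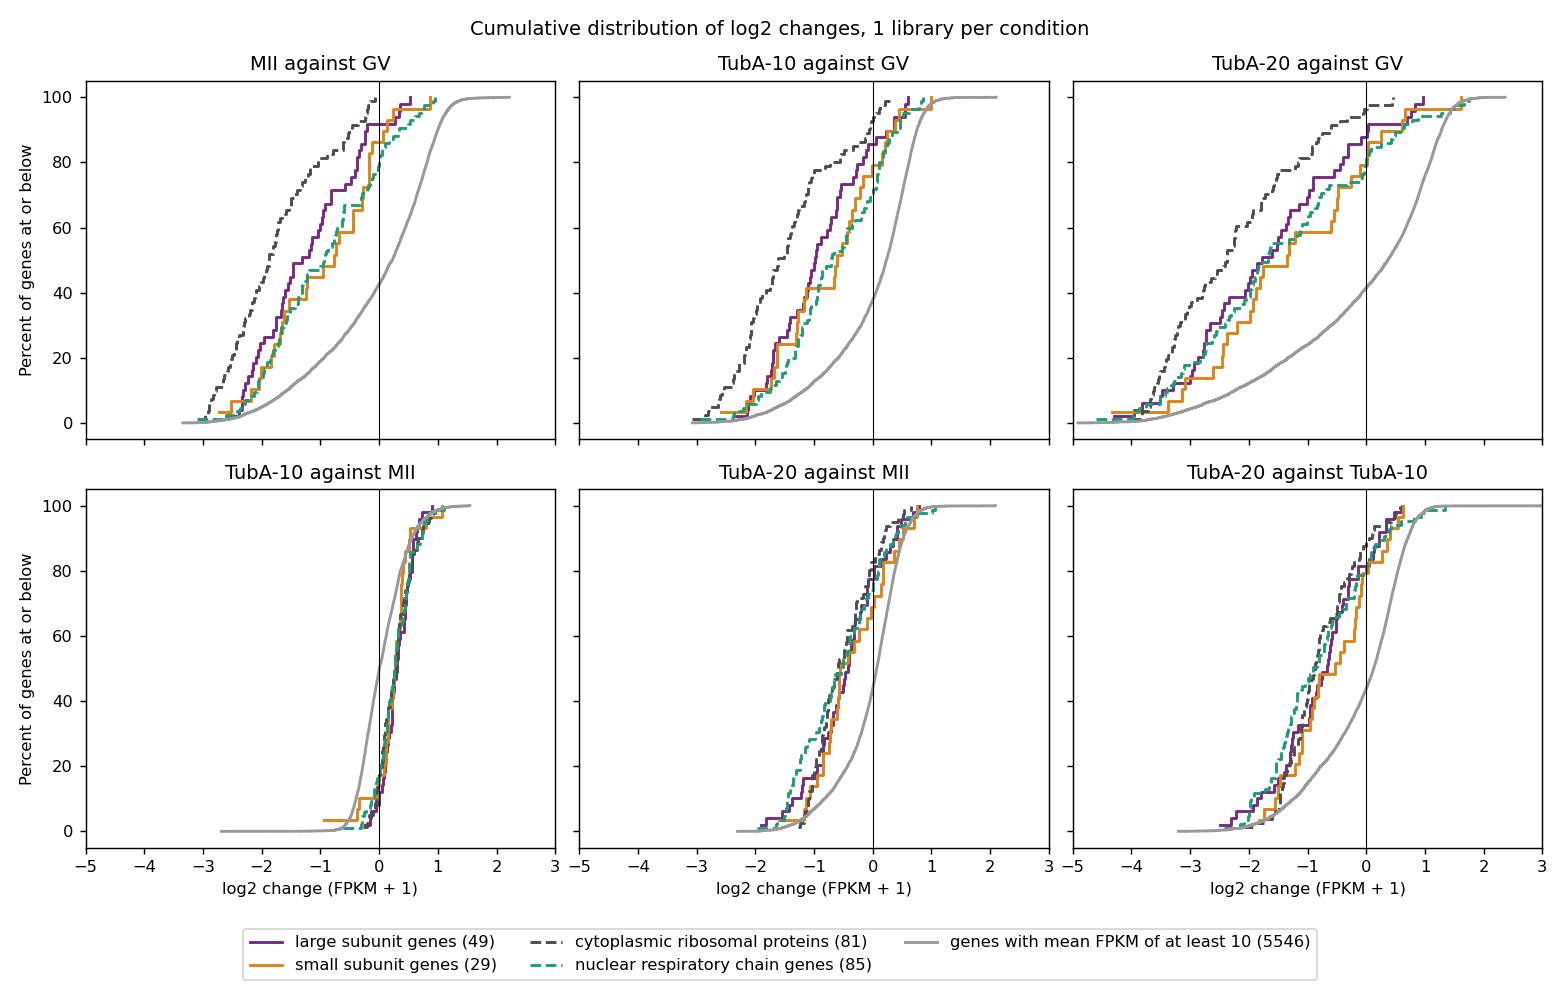
Cumulative percent of genes at or below each log2 change in the 6 comparisons, for large (purple) and small (orange) subunit genes, cytoplasmic ribosomal protein and nuclear respiratory chain genes (dashed) and 5546 expressed genes (grey). In the top row the purple and orange steps lie left of grey, with medians of -1.78 and -1.34 against 0.37 in TubA-20, and in the TubA-10 against MII panel they lie right of it, at 0.30 and 0.28 against 0.00.

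By their median, members had short 3′ untranslated regions, the part of the message where elements that control its tail lie. In the principal GENCODE transcript their median length was 327 bases, against 811 in expressed genes. It was 316 bases in the 51 members below GV by more than 2-fold in TubA-20, 788 in the 15 lower by less and 811 in the 12 higher. Among expressed genes the same 3 classes had 354, 642 and 1112 bases. Over all members the upper quartile was 1967 bases, against 1754.5 in expressed genes. Mrps18c had 63 bases and Mrpl55 327, while Mrps5 had 2976 and Mrps14 2560. Length and fall did not go together in every gene: of the 34 members with over 500 bases 19 (55.9%, against 15.2% of expressed genes of that length) were more than 2-fold lower, Mrpl17 with 6651 bases among them, and Mrps9 had 186 bases and a change of 0.24.

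The cytoplasmic polyadenylation element, read as TTTTAT or TTTTAAT anywhere in the 3′ untranslated region, was present in 36 of 78 members (46.2%) and in 60.7% of expressed genes. It was in 18 of 51 members more than 2-fold lower (35.3%), 9 of 15 lower by less and 9 of 12 higher. In expressed genes the shares were 30.01%, 53.7% and 75.4%, the same order as in the members. In the last 100 bases of the region it was in 7 of 51, 3 of 15 and 2 of 12 members (13.7%, 20% and 16.7%) and in 9.90%, 16.0% and 28.4% of expressed genes, and these member counts are too small to order. A longer region holds a given run of letters more often, and length and element were not separated here.

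Members were lower than expressed genes of like 3′ length, by medians and with no test. With 3′ untranslated regions over 500 bases, 34 members had a median of -1.27 in TubA-20 against GV and 3500 expressed genes 0.65. Over 200 and up to 500 bases the medians were -1.71 in 26 members and -0.13 in 1159 genes, and up to 200 bases -2.01 in 18 and -0.96 in 824. Across the 78 members Spearman's rho between length and change was 0.25, as a description over genes of the same 2 libraries. For the GV level and the change it was -0.33, where the GV library enters both. Over expressed genes rho was 0.33 for length and -0.34 for the GV level.

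**Figure D5:**
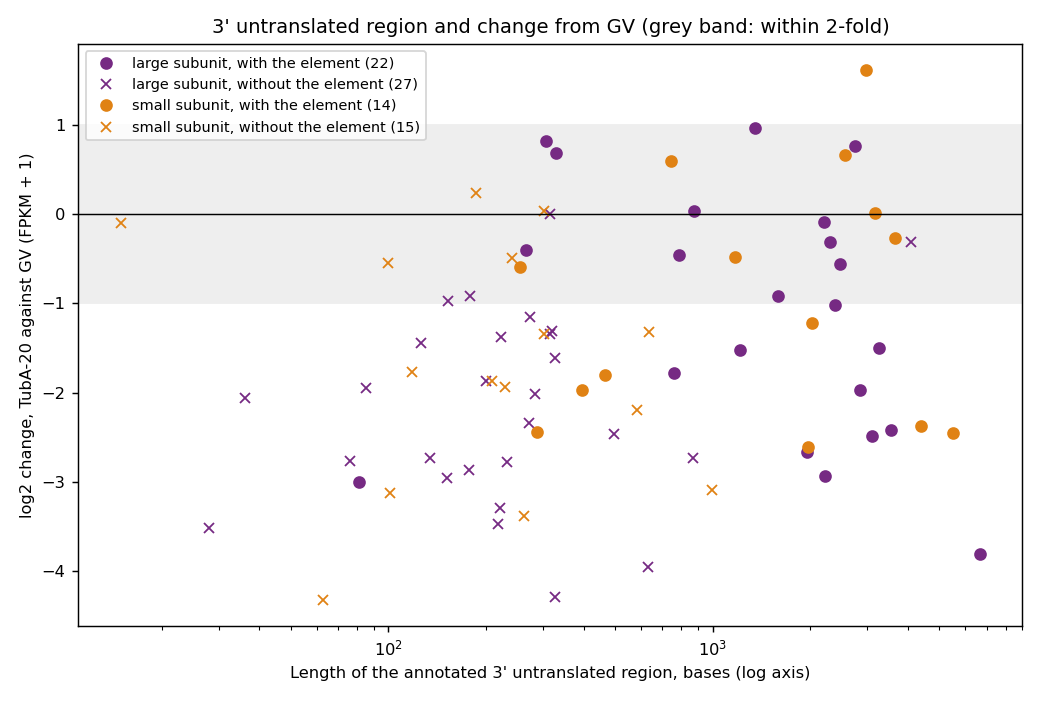
Log2 change, TubA-20 against GV, of each member against the length of its annotated 3′ untranslated region on a log axis, in purple for the large and orange for the small subunit, with filled points for genes holding the element and crosses for those without. Mrps5 stands alone above the grey 2-fold band at 2976 bases and 1.62, and the genes below the band span from under 100 bases to the 6651 of Mrpl17.

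Of 6 ribosome proteins and partners under different symbols, 4 were below GV by more than 2-fold in TubA-20 (11.7% of all and 24.0% of expressed genes were), with a median of -1.98. Aurkaip1, of the small subunit, had 238, 56.9, 81.6 and 24.8 FPKM across GV, MII, TubA-10 and TubA-20 (-3.21). Dap3, which binds GTP in the small subunit, had 352, 204, 282 and 247 FPKM (-0.51), and Ptcd3, a protein with RNA-binding repeats, 10.3, 13.3, 17.3 and 14.5 FPKM (0.46).

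Factors that act on the mitochondrial ribosome had medians nearer to 0 than its proteins. In GV the median level was 8.51 FPKM in translation factors and 17.4 FPKM in assembly factors, against 76.9 FPKM in the members. The pseudocount of 1 FPKM draws changes of low genes towards 0, and these lists were not recomputed with smaller pseudocounts. Of 16 translation factors 3 (18.8%) were below GV by more than 2-fold in TubA-20 and 0 above, with a median of -0.31, where 24.0% of expressed genes and 11.7% of all genes were lower. Only 5 of the 16 had the mean of 10 FPKM of expressed genes, so neither background matches them. Tufm, which brings tRNAs, had 21.4, 5.22, 5.25 and 2.54 FPKM (-2.66), whereas Gfm1, which drives translocation, had 17.3, 27.6, 24.7 and 34.6 FPKM (0.96). Among 27 assembly and ribosomal RNA modification factors 10 (37.0%) were lower and 0 higher, with a median of -0.51. Mterf4, which acts in ribosome assembly, had 135, 36.5, 54.7 and 25.2 FPKM (-2.38), and Dhx30, an RNA helicase, 89.1, 53.6, 60.3 and 68.8 FPKM (-0.37).

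Of 20 genes for mitochondrial RNA synthesis, processing and stability, 6 (30%) were more than 2-fold below and 3 (15%) above GV in TubA-20, with a median of -0.23. Expressed genes had 24.0% on each side, and all genes 11.7% lower and 7.61% higher. Polrmt, the mitochondrial RNA polymerase, had 57.7, 14.0, 13.9 and 5.11 FPKM (-3.27), and Slirp, which stabilises mitochondrial messages, 98.1, 18.05, 27.4 and 11.5 FPKM (-2.99). Fastkd1 had 15.7, 28.6, 29.4 and 43.7 FPKM (1.42) and Supv3l1, an RNA helicase, 22.1, 42.7, 34.6 and 54.5 FPKM (1.26). Tfb2m, a transcription factor of mitochondria, was the third, with 4.13 and 10.2 FPKM in the GV and TubA-20 libraries (1.12). Of 19 aminoacyl-tRNA synthetases 9 were lower and 1 higher, Fars2 at 92.6 and 189.9 FPKM (1.03), with a median of -0.76. As 4 of the 19 had a mean of at least 10 FPKM, the share of expressed genes does not match this list either. The synthetases had a median of 3.27 FPKM in GV, so the pseudocount draws their changes towards 0 as well.

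The cytoplasmic ribosome was further down than the mitochondrial one. Of 81 ribosomal protein genes 66 were more than 2-fold below GV and 0 above it in TubA-20, with a median of -2.38, and 66 in MII with a median of -1.87. Their sum was 49942 FPKM in GV and 15524 in TubA-20, 31.1% of GV. Of 85 nuclear genes for oxidative phosphorylation 53 were lower and 5 higher in TubA-20, with a median of -1.68 close to the -1.69 of the members. The 5 were Cox8a, Cox6b2, Ndufa4, Uqcrc2 and Ndufa10, at 1.27 to 1.75. In TubA-20 against GV 11.7% of all genes were called lower and 7.61% higher, and of expressed genes 24.0% each way. In MII 8.34% of all and 19.0% of expressed genes were called lower. The lists were compared by counts and medians alone.

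Protein genes of mitochondrial DNA, which these ribosomes translate, cannot be set beside the members. All 13 were listed, 8 to 10 of them at 0 in each library, and their sum was 1.43 FPKM in GV and 16.9 in TubA-20. Such messages are abundant in every oocyte, so these entries are not read as levels.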

How the data were processed

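RNA of pooled oocytes was enriched with oligo(dT), sequenced paired-end, and the authors deposited 1 table of FPKM values, made with Cufflinks for a strand-specific library against mm10 (the GRCm38 build). The submitters' processing notes name STAR 2.5.0 and Cuffdiff 2.2.1. Labels and methods differ on RNA extraction and on pooled or single oocytes. Symbols were joined by Ensembl identifier (21794 of 21959 entries matched), and entries sharing a symbol were added up. No member shares one. The table holds FPKM and no counts, so no counting error was computed. By its own read totals, the study sequenced MII and the low-dose library more deeply than GV and the high-dose library.

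Changes were log2 ratios with a pseudocount of 1 FPKM, called past 2-fold, with no filter and no test. Positions and 3′ untranslated regions came from GENCODE (GRCm38) and promoters from RefSeq. Pseudogenes of members were not analysed here, so reads shared with them (known for Mrps36, Mrpl23 and Mrpl48) are uncertain. The members, gene lists and tests were chosen with earlier results of these data known. Genes named were the 5 most abundant and the 5 largest falls and rises of each subunit in TubA-20 against GV, those past 2-fold above GV or between TubA-10 or TubA-20 and MII, and the Mrps18 relatives. From the lists, genes past 2-fold or among the 3 highest could be named. Mrpl46, Mrps11, Mrpl30, Mrpl36, Mrpl53, Mrps16, Mrps35 and Ptcd3, members named by direction only, and the neighbours were chosen after their values were seen. Alternatives were other pseudocounts, filters and scalings, and, added after seeing the data, leaving out Mrps14, Mrpl18, both or Mrps34, or allowing no overlap of divergent starts. Computation used Python 3.11.15 with numpy 2.4.6, pandas 2.3.3 and matplotlib 3.10.9. The counting was tested on simulated data.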

Additional observations from a re-analysis of the deposited data

How the results depend on the processing

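The 30 counts past 2-fold, subunit medians and their differences were recomputed under 11 alternatives: pseudocounts of 0.1 and 0.01 FPKM, means of at least 1 and 5 FPKM, 4 scalings (a median change of 0 against GV, equal FPKM sums, equal upper quartiles, equal Gapdh), the highest entry per symbol, no pseudogene symbols, and subunits by known place. Medians that moved by up to 1.5-fold and counts within 1.5 times were taken as unchanged. This was so for 308 of the 318 values, among them every count past 2-fold lower than GV and every subunit median. The highest entry per symbol, no pseudogene symbols and a mean of at least 1 FPKM could change nothing. No member shares a symbol or is a pseudogene, and all 78 reach that mean. For differences of subunit medians the limit is wide. In MII against GV a move from -0.55 to -0.36, with means of at least 5 FPKM, counted as unchanged. Of the 10 exceptions 9 were counts that changed by 1 member, and the other was a difference of subunit medians. Scaling to equal Gapdh gave 1 member more than 2-fold higher in MII than in GV. Pseudocounts of 0.1 and 0.01, equal FPKM sums and equal Gapdh each gave 1 in TubA-10 against GV. Equal upper quartiles and equal Gapdh each gave 2 in TubA-20 against GV. Both smaller pseudocounts gave 1 member more than 2-fold lower in TubA-10 than in MII. The difference of subunit medians (large minus small) between TubA-20 and TubA-10 reversed to 0.0582 among members with a mean of at least 5 FPKM. Mrps34, at -1.14 in TubA-20 against MII, came to -1.84 and -1.96 with the smaller pseudocounts, and the 8 members above GV in MII became 13 with equal Gapdh and 6 with scaling to a median change of 0. Before that scaling the median log2 change of the 9193 genes at 1 FPKM or more in all 4 libraries was 0.13 (MII), 0.14 (TubA-10) and 0.19 (TubA-20) against GV, and with it 4 of the 12 members above GV in TubA-20 fall below it. No paired analysis was possible because each condition has 1 library. The table holds no counts behind each value, so no counting interval is given, and low members such as Mrps34 and Mrpl19 are the least certain.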
